A study of Arabidopsis thaliana with 6 samples.

Results

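The Casparian strip is a ring of lignin in the walls between neighbouring endodermal cells of the root, and it seals the space between the cells so that water and ions cannot pass around them. CASP proteins form a membrane domain that marks where the strip is laid down, peroxidases and dirigent-like proteins act on the lignin there, and a receptor kinase reports gaps in the ring. The genes are switched on as endodermal cells leave the meristem and differentiate, under the transcription factor MYB36. The 8 genes described here were taken by locus out of the 33560 genes of the deposited table: *CASP1*, *CASP2*, *CASP4*, *CASP5*, *MYB36*, *ESB1*, *PER64* and *SGN3*. All 8 were found, and all 8 passed the filter of a mean of at least 1 FPKM, so none was left untested.

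RNA came from root tips of about 2 mm, cut from 5-day-old *Arabidopsis* seedlings on sucrose plates under long days. The groups were *bron-2*, whose C2H2-type transcription factor gene *BRON* (AT1G75710) carries a T-DNA insertion, and Col-0 wild type as the control, with 3 biological replicates of each. Each replicate pooled seedlings from several plates. *bron-2* is a single insertion line, and a second allele was not analysed here. The comparison asks which transcripts depend on *BRON*.

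Values are FPKM, which scale the fragments of a gene by transcript length and library size, so levels can be set beside each other between genes. The 6 libraries summed to between 791546 and 812383 FPKM, and their log2(FPKM + 1) values correlated at 0.990 to 0.995. The steps between the lowest values put the relative depth at 1.2 to 1.25 in *bron-2* and at 0.972 to 1.11 in wild type, with wild type replicate 1 set to 1. *BRON* was at 1.25, 0.925 and 1.10 FPKM in the 3 *bron-2* libraries, against 17.9, 16.1 and 17.3 FPKM in the 3 wild-type libraries, so the labels and the targeted gene fit together. Its log2 fold change was -3.12 (adjusted p = 7.91e-05, limma with Benjamini-Hochberg adjustment). Where a gene is given 3 values per genotype, they stand in the order of replicates 1, 2 and 3. All fold changes are *bron-2* over wild type on the log2(FPKM + 1) scale.

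In *bron-2* root tips 7 of the 8 Casparian strip genes had a higher mean than in wild type, at 116% (*PER64*) to 144% (*CASP5*) of it, while *MYB36* was at 96.2% of its wild-type mean. The median log2 fold change of the 8 genes was 0.29, beside -0.000995 over all 17107 genes tested, of which 49.7% had a value above 0. It was 0.13 without wild type replicate 1 and 0.46 without wild type replicate 3. At an unadjusted limma p under 0.05, the threshold of the study's methods, *CASP2*, *CASP5* and *SGN3* were called higher (3 of 8) and none was called lower. The background over all tested genes was 9.79% called in either direction, with 4.03% called higher and 5.76% called lower. At an adjusted limma p under 0.05 none of the 8 was called, where the background was 0.0818%, and the smallest adjusted p was 0.458 (limma, Benjamini-Hochberg). The CASP genes, *ESB1* and *PER64* varied together from library to library, so the calls of *CASP2* and *CASP5* are not separate observations. The count of 3 depended on single libraries. It was 0 without wild type replicate 1, without wild type replicate 2 or without *bron-2* replicate 2, it was 1 without *bron-2* replicate 3, and it was 6 without wild type replicate 3.

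The CASP genes encode small membrane proteins that assemble into the scaffold of the strip. *CASP1* (AT2G36100) lies on chromosome 2 from 15159591 to 15160799 in TAIR10.1. It was the most abundant of the 8 genes, with rank 67 of the 33560 genes by mean level. *CASP1* was at 1011, 1163 and 1378 FPKM in the 3 *bron-2* libraries, against 704, 999 and 1191 FPKM in the 3 wild-type libraries. The groups overlapped, and replicate 1 was the lowest library in each genotype. The means were 1184 ± 185 FPKM in *bron-2* and 965 ± 245 FPKM in wild type (SD, n = 3 each), a log2 fold change of 0.32 (standard error 0.20, adjusted p = 0.641 with limma). It was 0.11 without wild type replicate 1, 0.20 without *bron-2* replicate 3 and 0.49 without wild type replicate 3.

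*CASP2* (AT3G11550, chromosome 3 from 3638178 to 3639348) was at 378, 440 and 560 FPKM in the 3 *bron-2* libraries, against 261, 348 and 406 FPKM in wild type. The lowest *bron-2* library of *CASP2* lay below the highest wild-type library. Its log2 fold change was 0.44, with a standard error of 0.19 (adjusted p = 0.508 with limma), and the 95% interval of 0.0035 to 0.88 reached almost to 0. *CASP5* (AT5G15290, chromosome 5 from 4967011 to 4968092) had the largest fold change of the family. It was at 212, 255 and 313 FPKM in the 3 *bron-2* libraries, against 126, 178 and 237 FPKM in wild type, and *bron-2* replicate 1 lay below wild type replicate 3. On the log2 scale *CASP5* differed by 0.55 (standard error 0.23, adjusted p = 0.498 with limma and Benjamini-Hochberg). Without wild type replicate 1 the log2 fold change was 0.27 for *CASP2* and 0.32 for *CASP5*, and without *bron-2* replicate 3 that of *CASP2* was 0.29. The calls of *CASP2* and *CASP5* were each kept in 2 of the 6 fits that left out 1 library, those without wild type replicate 3 or *bron-2* replicate 1, and both were lost when the variance was modelled without its trend on expression.

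*CASP4* (AT5G06200, chromosome 5 from 1877134 to 1878324) was at 440, 536 and 621 FPKM in *bron-2*, against 296, 417 and 545 FPKM in wild type. It missed the unadjusted threshold. Its log2 fold change was 0.37 (95% interval -0.14 to 0.88, adjusted p = 0.623 with limma). It was 0.14 without wild type replicate 1 and 0.58 without wild type replicate 3. The groups of *CASP4* overlapped, since *bron-2* replicate 1 and replicate 2 lay below wild type replicate 3.

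The 4 CASP genes together came to 2040, 2394 and 2872 FPKM in the 3 *bron-2* libraries, against 1387, 1941 and 2381 FPKM in the 3 wild-type libraries. In RNA from whole root tips, more endodermal cells with a strip and more of the transcripts per cell cannot be told apart. The plot of levels by library shows the same lowest library in both genotypes for each CASP gene.

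**Figure D1:**
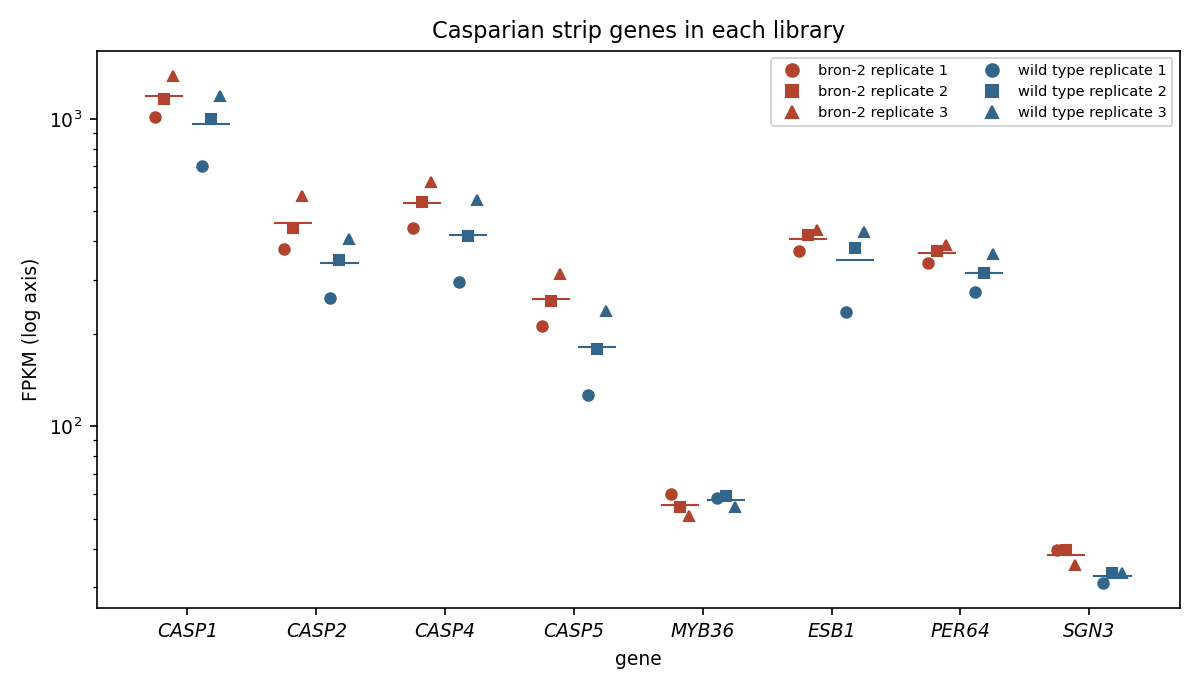
FPKM on a log axis of the 8 Casparian strip genes, with *bron-2* left of wild type for each gene, 1 symbol per library (replicates 1, 2 and 3 by shape) and a line at the mean of 3 libraries. *CASP1* is the highest gene in all 6 libraries and *SGN3* the lowest, and only for *SGN3* do all *bron-2* libraries lie above all wild-type libraries.

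*ESB1* and *PER64* act on the wall itself. *ESB1* (AT2G28670, chromosome 2 from 12300265 to 12302358) encodes a dirigent-like protein needed for a continuous ring. It was at 373, 418 and 434 FPKM in the 3 *bron-2* libraries, against 236, 380 and 427 FPKM in wild type, where replicate 1 stood well below the other 2 libraries. Its log2 fold change was 0.27, with a standard error of 0.20 (adjusted p = 0.705 with limma), and without wild type replicate 1 it was 0.02. *PER64* (AT5G42180, chromosome 5 from 16852628 to 16854224) encodes a peroxidase of the strip. It was at 341, 373 and 387 FPKM in *bron-2*, against 272, 314 and 362 FPKM in wild type, a log2 fold change of 0.22 (standard error 0.11, adjusted p = 0.568 with limma), which was 0.12 without wild type replicate 1. The groups of both genes overlapped.

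*SGN3* (AT4G20140, listed as *GSO1* in the annotation; chromosome 4 from 10883921 to 10888270) encodes the receptor kinase that binds the CIF peptides and reports gaps in the barrier. It had the lowest level of the 8 genes, with 39.5, 39.7 and 35.3 FPKM in the 3 *bron-2* libraries, against 31.0, 33.3 and 33.4 FPKM in wild type. All *bron-2* libraries of *SGN3* lay above all wild-type libraries. It was the one member of 8 whose groups did not overlap with *bron-2* higher, where 7.06% of all tested genes did so and 8.67% did so with *bron-2* lower (15.7% together). A count of 1 in 8 is near that background. The means were 38.2 ± 2.5 FPKM in *bron-2* and 32.5 ± 1.33 FPKM in wild type (SD, n = 3 each), and the two-sided exact permutation p was 0.1, which no split of 6 libraries into 3 and 3 can go below. On the log2 scale *SGN3* differed by 0.22 (standard error 0.084, adjusted p = 0.458 with limma and Benjamini-Hochberg), and it stayed under the unadjusted threshold in 2 of the 6 fits without 1 library, those without wild type replicate 3 or *bron-2* replicate 3. Its gene model overlaps that of AT4G20150 on the opposite strand, which averaged 406 FPKM in *bron-2* and 393 FPKM in wild type, far above *SGN3*, so the values of *SGN3* are uncertain if strand was not kept.

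*MYB36* (AT5G57620, chromosome 5 from 23334767 to 23336632) encodes the transcription factor that activates CASP genes and others of the strip. It was at 60.2, 54.5 and 51.1 FPKM in the 3 *bron-2* libraries, against 58.4, 59.4 and 54.5 FPKM in wild type. The groups overlapped, with a log2 fold change of -0.06 (95% interval -0.26 to 0.15, adjusted p = 0.873 with limma). The regulator therefore had no detected difference at a precision that would still allow 0.15 higher or 0.26 lower on the log2 scale.

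By mean level in *bron-2* the order was *CASP1*, *CASP4*, *CASP2*, *ESB1*, *PER64*, *CASP5*, *MYB36* and *SGN3*. In wild type *ESB1* and *CASP2* changed places and the order was otherwise the same. The library ranges overlapped between *CASP4*, *CASP2*, *ESB1* and *PER64* as neighbours in *bron-2*, and the same held for these 4 genes as neighbours in wild type. Within each single *bron-2* library the order was nevertheless the same. In wild type, *ESB1* over *CASP2* and *CASP2* over *PER64* did not hold in every library. *CASP1*, *CASP5*, *MYB36* and *SGN3* were each separated from their neighbours in both genotypes. The 8 genes together held 0.361% to 0.465% of the summed FPKM in *bron-2* libraries and 0.250% to 0.402% in wild-type libraries.

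The CASP genes, *ESB1* and *PER64* varied together among libraries of one genotype. The within-genotype SD on the log2 scale had a median of 0.310 over the 8 genes, beside 0.151 over all tested genes, and it was 0.377 for *CASP5* and 0.159 for *PER64* but 0.0949 for *MYB36* and 0.0780 for *SGN3*. For each of the 4 CASP genes, *ESB1* and *PER64*, the values rose from replicate 1 to replicate 2 to replicate 3, both in *bron-2* and in wild type. Over the 6 libraries, Pearson's r between pairs of the 6 genes other than *MYB36* and *SGN3* was between 0.876 and 0.994 (15 pairs). With each value taken as its deviation from the genotype mean, it was between 0.863 and 0.997, so the shared pattern does not rest on the difference between genotypes. *MYB36* ran the other way, with r from -0.787 to -0.530 against the 6 genes, and *SGN3* had r from 0.479 to 0.625, falling to between -0.144 and 0.363 for the deviations. These correlations are descriptions over 6 points that share their libraries. Whether replicates with 1 number were grown or cut together is not stated in the sources used here.

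**Figure D2:**
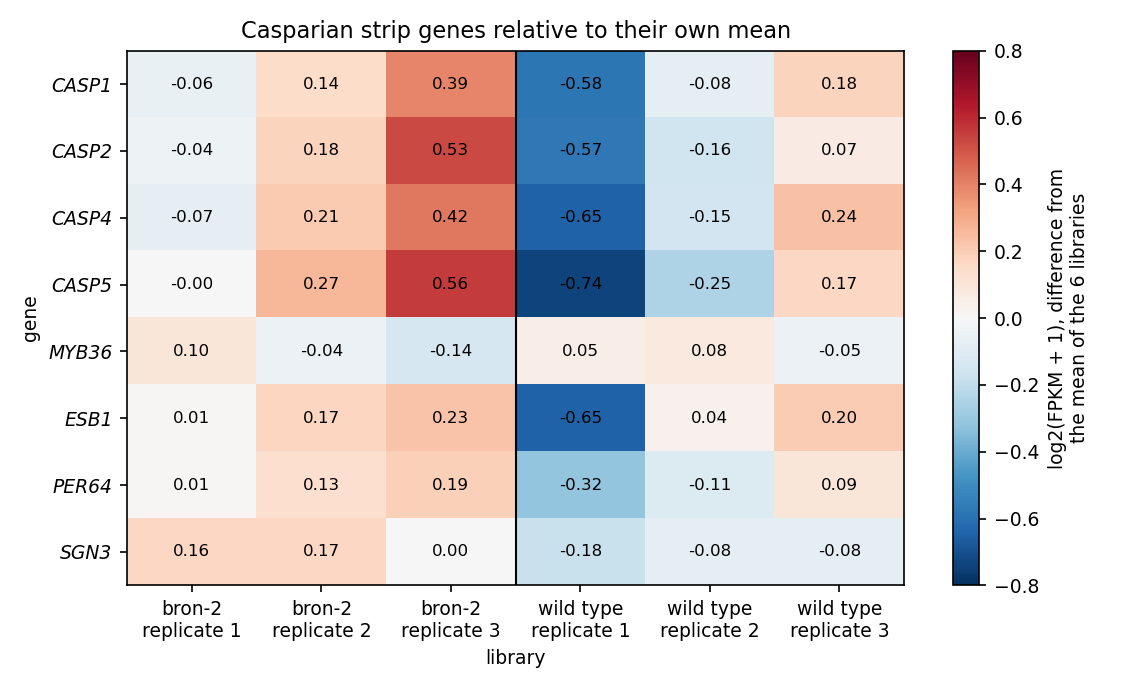
Each cell gives log2(FPKM + 1) of a gene in a library minus the mean of that gene over the 6 libraries, with the *bron-2* libraries left of the line and the wild-type libraries right of it. Wild type replicate 1 is 0.32 to 0.74 below the mean for the CASP genes, *ESB1* and *PER64*, and *bron-2* replicate 3 is 0.19 to 0.56 above it, while *MYB36* and *SGN3* stay within 0.18 of their means.

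Ratios between CASP genes varied less among the libraries than the ratio of *CASP1* to the regulator. The SD of the log2 ratio over the 6 libraries was 0.0621 to 0.146 for the 6 pairs of CASP genes. *CASP1* over *CASP4* was 2.17 to 2.30 in *bron-2* and 2.18 to 2.40 in wild type, the pair with the smallest SD. *CASP1* over *CASP5*, the pair with the largest, was 4.41 to 4.78 in *bron-2* and 5.02 to 5.62 in wild type, without overlap. *CASP1* over *MYB36* was 16.8, 21.3 and 27.0 in the 3 *bron-2* libraries, against 12.1, 16.8 and 21.9 in the 3 wild-type libraries.

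The 250 bases before the annotated start of 3 CASP genes and of *MYB36* are shown, 5′ to 3′ on the strand of the gene. They were read from the RefSeq assembly TAIR10.1. Capitals mark ACCNAA or ACCNAC on either strand, the AC-element type of sequence that R2R3 MYB factors can bind. The windows are chr2:15160800-15161049 (minus strand) for *CASP1*, chr5:1876884-1877133 (plus) for *CASP4*, chr5:4966761-4967010 (plus) for *CASP5* and chr5:23334517-23334766 (plus) for *MYB36*. The *CASP2* window overlaps the neighbouring gene and is not printed.
CASP1: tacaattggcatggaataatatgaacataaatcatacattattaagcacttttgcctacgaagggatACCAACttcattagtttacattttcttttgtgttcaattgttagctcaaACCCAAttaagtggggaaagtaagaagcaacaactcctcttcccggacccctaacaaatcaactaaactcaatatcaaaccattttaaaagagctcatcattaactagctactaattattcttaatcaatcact
CASP4: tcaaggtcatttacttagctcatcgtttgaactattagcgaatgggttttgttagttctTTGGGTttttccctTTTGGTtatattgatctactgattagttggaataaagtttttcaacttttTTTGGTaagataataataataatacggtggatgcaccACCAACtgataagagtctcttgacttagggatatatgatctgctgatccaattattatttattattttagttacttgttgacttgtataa
CASP5: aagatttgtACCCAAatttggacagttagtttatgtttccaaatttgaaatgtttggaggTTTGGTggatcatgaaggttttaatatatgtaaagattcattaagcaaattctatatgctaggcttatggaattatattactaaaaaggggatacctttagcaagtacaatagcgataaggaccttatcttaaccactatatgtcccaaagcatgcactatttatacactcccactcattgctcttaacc
MYB36: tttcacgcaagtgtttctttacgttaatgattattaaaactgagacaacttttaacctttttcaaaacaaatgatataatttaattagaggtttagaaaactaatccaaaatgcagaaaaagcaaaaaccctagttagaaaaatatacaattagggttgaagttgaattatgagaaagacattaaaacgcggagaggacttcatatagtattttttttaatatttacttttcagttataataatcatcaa

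These letters occurred in 7 of the 8 windows. There were 2 matches in each of *CASP1*, *CASP2*, *CASP5*, *PER64* and *SGN3*, 3 in *ESB1*, 4 in *CASP4* and 0 in *MYB36*. *SGN3*, which did not share the library pattern of the CASP genes, thus had as many matches as *CASP1*. The same letters occurred in 64.5% of the 27438 windows of all protein-coding genes, so a match is common. A general MYB core, CNGTTA or CNGTTG on either strand, was in 5 of the 8 windows and in 40.7% of all windows, and it overlapped an AC-element match once in *CASP4* and once in *ESB1*. The pattern CGTGNG takes in the brassinosteroid response element, the type of sequence that BES1 and BZR1 bind, and is wider than it. This pattern was in 1 of the 8 windows, that of *SGN3*, and in 12.5% of all windows. TTTGTC, the core bound by zinc-finger proteins of the IDD family in maize, was in 1 of 8 (*ESB1*) and in 24.1% of all windows. A match here is a description of the letters and no measure of binding.

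The list of other genes that build the strip had higher values in *bron-2* as well. Of 16 such genes, all tested and all with a log2 fold change above 0, 5 were called higher at an unadjusted limma p under 0.05 and none lower, beside the background of 4.03% called higher. Most of these genes shared the library pattern of the members, so their values are not separate observations. Wild type replicate 1 was the lowest wild-type library for 12 of the 16, beside 6609 of all 17107 tested genes. *bron-2* replicate 1 was the lowest *bron-2* library for 11 of the 16, beside 7253 of all tested genes. Their median log2 fold change was 0.28, in a range from 0.07 (*CASPL1D2*) to 0.41. The smallest adjusted p was 0.292 (limma, Benjamini-Hochberg). AT1G44970, annotated as a peroxidase, had the smallest p of the list. It was at 96.0, 107 and 112 FPKM in the 3 *bron-2* libraries, against 70.1, 79.8 and 86.3 FPKM in wild type, a log2 fold change of 0.41 (adjusted p = 0.292 with limma) that was called in all 6 fits without 1 library. *CASPL1D1*, which encodes a CASP-like protein, was at 247, 265 and 310 FPKM in *bron-2*, against 182, 203 and 242 FPKM in wild type, with a log2 fold change of 0.39 (adjusted p = 0.390 with limma). The call of *CASPL1D1* was lost without *bron-2* replicate 3. The groups of both genes did not overlap, which held for 5 of the 16 genes with *bron-2* higher, beside 7.06% of all tested genes.

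The peroxidase gene *RCI3* averaged 655 ± 11.8 FPKM in *bron-2* and 582 ± 13.4 FPKM in wild type (SD, n = 3 each), a small change of 0.17 on the log2 scale with little spread (adjusted p = 0.448 with limma). *UCC1*, which encodes a blue copper protein of the uclacyanin family, averaged 645 ± 56.4 FPKM in *bron-2* and 501 ± 97.5 FPKM in wild type (SD, n = 3 each), a log2 fold change of 0.38 (adjusted p = 0.461 with limma). The fifth call of the list was AT1G07730, annotated as a dirigent-like protein, with a log2 fold change of 0.41 (adjusted p = 0.473 with limma). The 5 dirigent-like genes of the list had log2 fold changes of 0.26 to 0.41, and the other 4 missed the threshold. *RCI3*, *UCC1* and AT1G07730 each kept the call in 2 of the 6 fits without 1 library. *UCC1* and AT1G07730 kept it without wild type replicate 3 or *bron-2* replicate 1, and *RCI3* without wild type replicate 1 or *bron-2* replicate 3. *RCI3* also lost it without the variance trend, and *UCC1* had a log2 fold change of 0.22 without wild type replicate 1. Most of the list also shared the library pattern of the members, with a median r of 0.911 to the mean profile of the 8 genes over 6 libraries, ranging from -0.0127 to 0.988, beside a median of 0.022 over all genes ranked.

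In the list for signalling to the barrier 1 of 7 genes was called lower and 0 higher, beside backgrounds of 5.76% and 4.03%. AT2G16385, which the annotation lists without a gene symbol, was at 0.562, 0.584 and 0.558 FPKM in the 3 *bron-2* libraries, against 2.16, 1.77 and 1.89 FPKM in wild type. Every *bron-2* library was at less than every wild-type library, as for 8.67% of all tested genes, and the mean was 29.4% of wild type. Its log2 fold change was -0.90, with a standard error of 0.14 (adjusted p = 0.127 with limma and Benjamini-Hochberg), and it stayed between -0.94 and -0.85 with each library left out in turn. These levels are low, so the pseudocount weighs on them, and with a pseudocount of 0.1 the log2 fold change was -1.60. The gene passed the filter of 1 FPKM only through wild type, with means of 0.568 FPKM in *bron-2* and 1.94 FPKM in wild type. At its *bron-2* level in both genotypes it would not have been tested. The other 6 genes of this list had log2 fold changes of 0.07 to 0.37 and none was called. AT1G61590, at 0.37, had the highest level of the list and an r of 0.986 to the mean profile of the members. The groups of 2 genes, *GSO2* and *RBOHD*, did not overlap with *bron-2* higher, beside 7.06% of all tested genes. The 6 genes include *TPST*, which encodes the enzyme that sulfates peptide hormones, at 9.57 ± 1.19 FPKM in *bron-2* and 8.43 ± 1.2 FPKM in wild type (SD, n = 3 each). They also include *GSO2*, a relative of *SGN3*, at 1.94 ± 0.199 FPKM in *bron-2* and 1.51 ± 0.0933 FPKM in wild type (SD, n = 3 each).

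**Figure D3:**
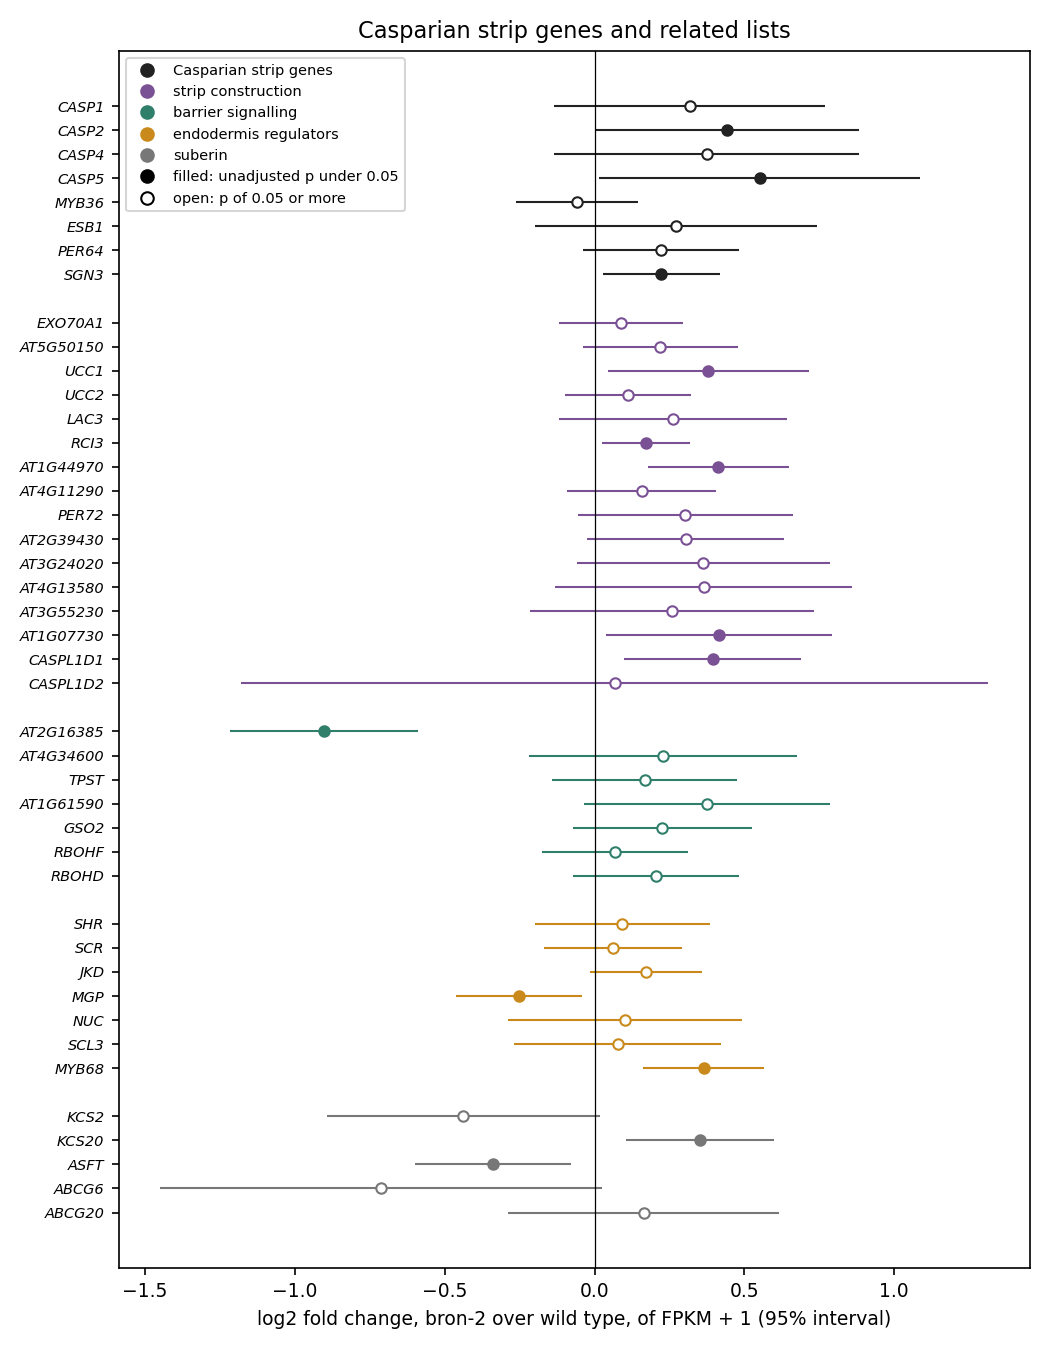
Log2 fold change of FPKM + 1, *bron-2* over wild type, with its 95% interval from limma, for the 8 Casparian strip genes and the tested genes of 4 related lists, with filled points at an unadjusted p under 0.05. All but *MYB36* of the members and all 16 strip construction genes lie right of 0, while AT2G16385 lies at -0.90.

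Among 7 regulators of the endodermis, 1 was called higher and 1 lower, beside backgrounds of 4.03% and 5.76%. *MYB68*, a close relative of *MYB36*, was at 11.5, 11.3 and 11.3 FPKM in the 3 *bron-2* libraries, against 8.88, 8.19 and 8.80 FPKM in wild type, a log2 fold change of 0.36 (adjusted p = 0.281 with limma and Benjamini-Hochberg). *MGP*, a zinc-finger target of SHR and SCR, was at 5.84, 6.0 and 6.08 FPKM in *bron-2*, against 7.47, 7.22 and 7.23 FPKM in wild type, a log2 fold change of -0.25 (adjusted p = 0.436 with limma). The libraries of each of these genes did not overlap between genotypes. Over the list, 2 genes (*MYB68* and *JKD*) did not overlap with *bron-2* higher and 1 with *bron-2* lower, beside 7.06% and 8.67% of all tested genes. *MYB68* was called in all 6 fits without 1 library, and *MGP* only without wild type replicate 3 or *bron-2* replicate 3. *SHR* and *SCR*, which specify the endodermis, had log2 fold changes of 0.09 and 0.06, and neither was called.

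Suberin is the second barrier of the endodermis and is laid down later and farther from the tip. Of 15 suberin genes, 5 reached the filter of 1 FPKM, and 4 genes of the list were at 0 in some library. Among the 5 tested genes 2 had a log2 fold change above 0 and 3 below 0, with a median of -0.34. *CYP86A1*, which encodes a fatty acid hydroxylase of suberin synthesis, was listed at 0.258, 0 and 2.56 FPKM in the 3 *bron-2* libraries, against 0, 0.082 and 0.801 FPKM in wild type. Of the genes under the filter, *CYP86A1*, *FAR1*, *MYB39* and *MYB41* had a higher mean in *bron-2* than in wild type. The others under the filter had a lower one, such as *CYP86B1* with 0.507 FPKM in *bron-2* and 1.23 FPKM in wild type. Of the 5 tested genes, *KCS20*, a fatty acid elongase gene, was called higher (log2 fold change 0.35, adjusted p = 0.366 with limma) and *ASFT*, which encodes a feruloyl transferase, was called lower (-0.34, adjusted p = 0.400 with limma), beside backgrounds of 4.03% called higher and 5.76% called lower. *KCS20* kept its call in all 6 fits without 1 library. *ASFT* lost it without wild type replicate 1, wild type replicate 2 or *bron-2* replicate 1.

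Of 25 markers of the stem cell niche, dividing cells, root hairs, xylem vessels and root cap, 21 were tested, none was called higher and 1 was called lower, *PLT2* of the stem cell niche. Both counts are near the backgrounds of 4.03% called higher and 5.76% called lower. The median log2 fold change was -0.07 over these 21 genes, 0.02 over 6 root hair genes and 0.03 over 6 xylem genes. It was -0.07 over 5 genes of dividing cells and -0.20 over 3 root cap genes (from -0.21 to -0.08). All 5 genes of dividing cells and all 3 of the root cap were below 0. The gene with the highest mean of each list without a call was *KNOLLE* for dividing cells (log2 fold change -0.07), *PRP3* for root hairs (0.05), *XCP2* for xylem (0.11) and *BRN1* for the root cap (-0.08). The summed level of the 6 root hair genes was 2862 to 3618 FPKM in *bron-2* and 3064 to 3166 FPKM in wild type, and that of the 7 xylem genes was 42.6 to 61.0 FPKM in *bron-2* and 43.5 to 55.2 FPKM in wild type. The 3 stem cell niche markers summed to 1.31 to 1.84 FPKM in *bron-2* and 2.48 to 2.71 FPKM in wild type. *PLT2* was at 0.807, 0.706 and 0.672 FPKM in the 3 *bron-2* libraries, against 1.63, 1.20 and 1.04 FPKM in wild type (log2 fold change -0.40, adjusted p = 0.465 with limma). It was the one tested gene of its list, at a mean of 1.01 FPKM, and among the fits without 1 library it was called only without wild type replicate 2 or wild type replicate 3. *PLT2* passed the filter of 1 FPKM only through wild type, with means of 0.728 FPKM in *bron-2* and 1.29 FPKM in wild type. *WOX5* was at 0 in 1 library. Summed root cap markers were 71.7 to 83.8 FPKM in *bron-2* and 80.6 to 95.8 FPKM in wild type. The part of a different share of tissues in the cut tips was not tested. Of 3 leaf photosynthesis genes 1, *RBCS1A*, was called lower, a call kept only without wild type replicate 1 or *bron-2* replicate 3 among the fits without 1 library, and the list summed to 23.0 to 29.9 FPKM in *bron-2* and 23.8 to 35.9 FPKM in wild type.

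**Figure D4:**
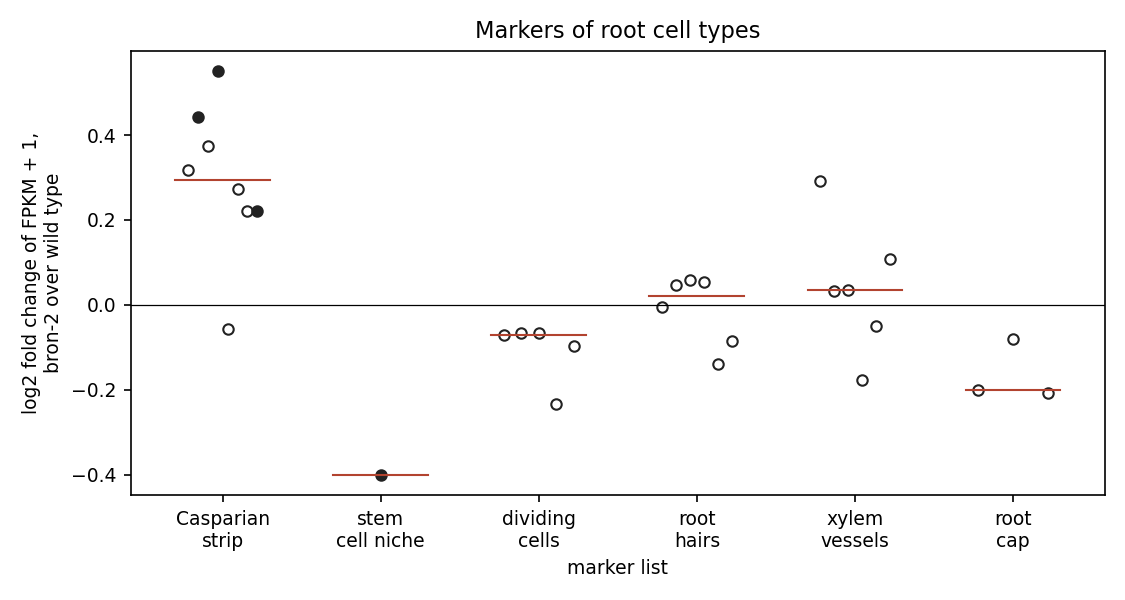
Log2 fold change of FPKM + 1, *bron-2* over wild type, of each tested gene in the Casparian strip list and in 5 lists of other root cell types, with the list median as a red line and filled points at an unadjusted limma p under 0.05. The Casparian strip median is 0.29, and the medians of the other lists lie between -0.40, the value of *PLT2* as the single tested stem cell niche gene, and 0.03. *PLT2* passed the filter only through its wild-type level.

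The 5 genes whose profile over the 6 libraries was most like the mean profile of the 8 members were *NPC1* (a phospholipase C gene, r = 0.999), AT3G61180 (0.995), *MGL* (a methionine gamma-lyase gene, 0.994), AT1G23440 (0.992) and AT3G45700 (0.992), out of 17099 genes ranked. These values rest on 6 points that share their libraries. *NPC1* averaged 13.7 FPKM in *bron-2* and 11.0 FPKM in wild type, and *MGL* 7.88 FPKM in *bron-2* and 5.59 FPKM in wild type. *NPC1* was also first when deviations from the genotype means were used (r = 0.999). Ranks 2 to 5 by these deviations were held by genes other than those named here, with log2 fold changes of 0.06, 0.04, -0.30 and -0.06.

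The sources used here do not say that strand was kept. The gene models of 5 members overlap a gene on the opposite strand, and without strand the reads of both cannot be told apart there. The overlapping genes were at 1.45 to 3.03 FPKM for *CASP1*, 0.143 to 0.525 FPKM for *CASP5*, 3.91 to 9.38 FPKM for *ESB1*, 52.4 to 67.7 FPKM for *PER64* and 346 to 429 FPKM for *SGN3*.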

How the data were processed

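The authors mapped single-end reads to TAIR10 using Cufflinks and deposited FPKM values, with 1 column per library and 33560 genes. The Cufflinks version, the annotation and how multi-mapping reads were handled are not given in the sources used here. The 6 columns were matched to samples by genotype and number in their names. The columns headed Col were taken as wild type and those headed N113, a name the labels give only to the table, as *bron-2*, the only other genotype in the labels. The low *BRON* level in them is a check of that match and did not set it. The number of reads is unknown. Relative depth was estimated from the most frequent ratio of pairs of libraries in genes under 0.2 FPKM (660 to 796 genes, largest residual 0.0317 on the log2 scale).

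FPKM are not counts, so genotypes were compared with limma 3.58.1 in R 4.3.3 on log2(FPKM + 1), with lmFit and eBayes with a trend, two-sided, on the 17107 genes whose mean reached 1 FPKM, with Benjamini-Hochberg adjustment. This scale understates the change of low genes. The authors used PoissonSeq at an unadjusted p-value of 0.05, and that threshold was kept beside the adjusted one. The limma p-values set the genotype difference against the spread among the 3 replicates of each genotype. That spread was pooled over both genotypes and moderated by the trend over all tested genes. Exact permutation tests cover all 20 splits of 6 libraries. Other work used Python 3.11.15 and scipy 1.17.1.

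The members and gene lists were chosen with earlier results of these data known. A further locus of the selection is not reported here and is in none of the counts over members. Named genes were the 8 members, *BRON*, up to 4 called genes per list with the smallest p or, in a list without a call, its highest gene, and the 5 genes most like the members. Further genes in the text (the fifth call of the strip list, *TPST*, *GSO2*, *SHR*, *SCR*, *CYP86A1*, *WOX5*) were named after their values were seen. Positions and windows come from TAIR10.1, which held 32826 of the identifiers, and gene names from the same annotation, with the locus given where it has no symbol. The alternatives changed the pseudocount (0.1), the filter (none, or a mean of 5 FPKM), the scaling (median log ratio or quantile) or the variance model (no trend), added the replicate number as a blocking term, or dropped 1 library at a time.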

Additional observations from a re-analysis of the deposited data

How the results depend on the processing

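The median log2 fold change of the 8 Casparian strip genes was 0.29 and stayed between 0.13 and 0.46 with each library left out in turn. Over 13 alternatives and 8 genes, no fold change reversed. Only the 3 called members could lose the unadjusted threshold, and they lost it 16 times. *CASP2* lost it in 6 of 13 alternatives, *CASP5* in 6 and *SGN3* in 4. Members not called in the main fit gained it 7 times. The count of 3 called members was 1 without the filter on low values, 1 without the trend, 4 after quantile normalization and 6 when the replicate block was added, and it ranged from 0 to 6 without 1 library. No alternative called a member at an adjusted limma p under 0.05, with 0 in every fit and adjusted p-values of 0.122 to 0.996 with Benjamini-Hochberg.

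Over all genes, 1674 passed the unadjusted threshold, with 1053 to 2289 when 1 library was left out. At an adjusted p, 14 genes passed, with 7 at a mean of at least 5 FPKM and 8 to 31 without 1 library. In the 4 related lists 10 of 35 tested genes were called, beside 9.79% of all tested genes, with 18 under the block, beside 13.2% of all tested genes, and 6 to 15 without 1 library. The block was not taken as a pairing. Deviations of libraries with the same number correlated at 0.123, -0.0133 and 0.186 for replicates 1, 2 and 3. Wild type replicate 2 was closer to *bron-2* replicate 1 (0.118) than to its own number. *bron-2* replicates 1 and 3 were each closest to their own number in wild type. Against wild type replicate 3, *bron-2* replicate 1 was at -0.219, and against wild type replicate 1, *bron-2* replicate 3 was at -0.105. Whether the numbers mark a shared batch was not tested. With the block, the unadjusted calls came to 2253 genes (13.2%), of which those higher in *bron-2* made up 5.61% of all tested genes, and the adjusted calls to 16. Without counts, depth sets no interval here.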

Other observations

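The proportions among the 4 CASP genes were compared within each library, a look taken after the values were seen. Of the 6 ratios, *CASP1* over *CASP5* was 4.41 to 4.78 in *bron-2* and 5.02 to 5.62 in wild type, *CASP4* over *CASP5* was 1.99 to 2.10 in *bron-2* and 2.30 to 2.34 in wild type, and *CASP1* over *CASP2* was 2.46 to 2.68 in *bron-2* and 2.69 to 2.93 in wild type. These are the 3 ratios whose groups did not overlap. Each had an exact two-sided permutation p of 0.1, the smallest that 3 libraries against 3 allow, and an adjusted p of 0.2 over the 6 ratios by Benjamini-Hochberg. In these ratios *CASP5* was higher relative to *CASP1* and *CASP4* in every *bron-2* library than in any wild-type library. *CASP2* over *CASP5* overlapped, at 1.73 to 1.79 in *bron-2* and 1.71 to 2.07 in wild type (exact permutation p = 0.4). The 6 ratios are built from 4 genes and are not separate observations. The share of such ratios among other gene pairs is not given here. No other test was run on the ratios.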
